A study of Mus musculus with 12 samples.

Results

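Claudins, occludin and the scaffold protein ZO-1 form the tight junctions of the gut lining, and the colon transcript levels of 10 of these genes are described here. The genes were found by their symbols in a table of 55335 genes: Cldn1, Cldn2, Cldn3, Cldn4, Cldn7, Cldn8, Cldn15, Cldn23, Ocln (occludin) and Tjp1 (ZO-1). Each symbol matched a single row. Tight junctions close the space between neighbouring epithelial cells near the gut lumen. Claudins span the membrane and set which ions and how much water pass between cells: some seal the gap and others form channels through it. Occludin belongs to a separate family of membrane proteins, and ZO-1 ties claudins and occludin to the actin cytoskeleton. In inflamed bowel these proteins are often studied as measures of the barrier. The values here are RNA levels, and protein was not measured.

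Colon RNA of WT mice was sequenced as 12 libraries, 3 in each of 4 groups. The groups were DSS colitis (dextran sulfate sodium, a detergent-like polymer) with thymopentin, DSS colitis with normal saline, TNBS colitis (trinitrobenzene sulfonic acid, a hapten) with thymopentin, and TNBS colitis with normal saline. Thymopentin, or TP5, is a short synthetic peptide taken from the thymic hormone thymopoietin, and the series title ties it to neutrophil extracellular traps. All 12 libraries had colitis, and no uninflamed colon was analysed here, so the levels have no healthy baseline. The sources used here do not give doses, timing, strain, age or sex. Nothing states that replicates came from separate animals, so p-values measure the spread between these libraries, which may be technical.

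Levels are FPKM (fragments scaled by transcript length and library size), which allow comparison between genes of different length. A fold change is the log2 difference of FPKM + 1 from limma, with its standard error (SE), and "called" means an adjusted p under 0.05 after Benjamini-Hochberg correction over 13794 genes with a mean of at least 1 FPKM. Of the 10 genes, 9 passed that minimum, and Cldn1, at a mean of 0.262 FPKM, did not.

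The colon label fitted its markers: 9 epithelial marker genes summed to 6255 to 7222 FPKM in DSS thymopentin, 5950 to 7271 in DSS saline, 4693 to 5768 in TNBS thymopentin and 5985 to 6875 in TNBS saline libraries, with none at 0. Markers of squamous epithelium, which would mark anal tissue, summed to between 0.903 and 2.38 FPKM in every library. Both TNBS libraries numbered 3 stood apart from the rest. Their immune markers summed to 5.38 FPKM in TNBS thymopentin 3 and 7.31 FPKM in TNBS saline 3, against 26.2 to 81.1 FPKM in the other 10 libraries. TNBS saline 3 also listed Hoxb13, a gene of the distal colon, at 0.722 FPKM, against 49.4 to 122.3 FPKM elsewhere. Where leaving these libraries out turned a sign, changed a call or moved a fold change of thymopentin over saline by over 1.5 times, the value without them stands beside the result.

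Upstream sequence is shown for the 3 genes with the largest ratios of mean FPKM, thymopentin over saline, in DSS colitis, so that their start regions can be compared. Each run is the 250 bases before the annotated start on the gene's own strand, 5′ to 3′, from RefSeq on build GRCm38.p6, which is not the build of the expression values. Capitals mark matches to TATAAA (the TATA box), TTTATG (a CDX-type motif) or GGGCGG (the GC box, CCGCCC on the other strand); GTTAAT (an HNF1-type motif), CAAAGTCCA (HNF4) and CAGGTG (an E box) were searched too, also on both strands, and their letters are not in these windows.
Cldn2, chrX:139800558-139800807, plus strand: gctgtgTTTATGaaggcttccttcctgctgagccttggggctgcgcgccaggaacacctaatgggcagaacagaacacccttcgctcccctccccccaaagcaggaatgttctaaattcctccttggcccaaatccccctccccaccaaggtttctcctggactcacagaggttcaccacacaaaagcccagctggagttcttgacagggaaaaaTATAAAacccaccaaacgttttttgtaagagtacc
Cldn15, chr5:136967619-136967868, plus strand: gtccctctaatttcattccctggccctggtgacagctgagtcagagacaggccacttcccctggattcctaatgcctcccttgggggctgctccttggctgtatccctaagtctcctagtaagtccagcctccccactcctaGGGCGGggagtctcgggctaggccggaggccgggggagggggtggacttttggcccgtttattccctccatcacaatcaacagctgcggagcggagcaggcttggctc
Ocln, the more upstream of its starts, chr13:100552719-100552968, minus strand: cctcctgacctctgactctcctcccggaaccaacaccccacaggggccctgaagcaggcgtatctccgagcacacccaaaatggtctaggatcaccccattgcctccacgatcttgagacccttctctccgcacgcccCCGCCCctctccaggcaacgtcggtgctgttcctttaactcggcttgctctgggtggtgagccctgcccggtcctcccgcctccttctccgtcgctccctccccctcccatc

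Cldn2 alone of the 3 held a TATA box, at positions -35 to -30 from the start, together with the CDX-type letters at -244 to -239. Cldn15 held a GC box at -108 to -103, and Ocln held one on the opposite strand at -112 to -107. The window of the other Ocln start, not shown, held a GC box at -43 to -38 and CAGGTG at -213 to -208 and -68 to -63. G and C made up 52.0% of the Cldn2 window, 60.8% of the Cldn15 window and 64.0% of the Ocln window. Over 32851 mouse promoters of this length, 12.4% held TATAAA, 10.8% held TTTATG, 32.7% held GGGCGG, 6.43% held GTTAAT, 0.384% held CAAAGTCCA and 17.2% held CAGGTG on either strand. Of the 8 genes found in the promoter table, 7 held a GC box. The matches are descriptions of letters and not of binding.

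Cldn3 and Cldn7, which seal the junction, gave most of the claudin RNA. Cldn3 ranked 124 among the tested genes with a mean of 313.0 FPKM over the 12 libraries, and Cldn7 ranked 215 with a mean of 189.1 FPKM. Next came Cldn8 at 42.6, Cldn4 at 35.7, Cldn15 at 29.1, Cldn23 at 25.8, Ocln at 20.5, Tjp1 at 19.7 and Cldn2 at 11.3 FPKM. Spread differed widely among them: Tjp1 ran from 14.9 to 24.4 FPKM over all libraries, whereas Cldn2 ran from 0.0151 to 39.0 FPKM.

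**Figure D1:**
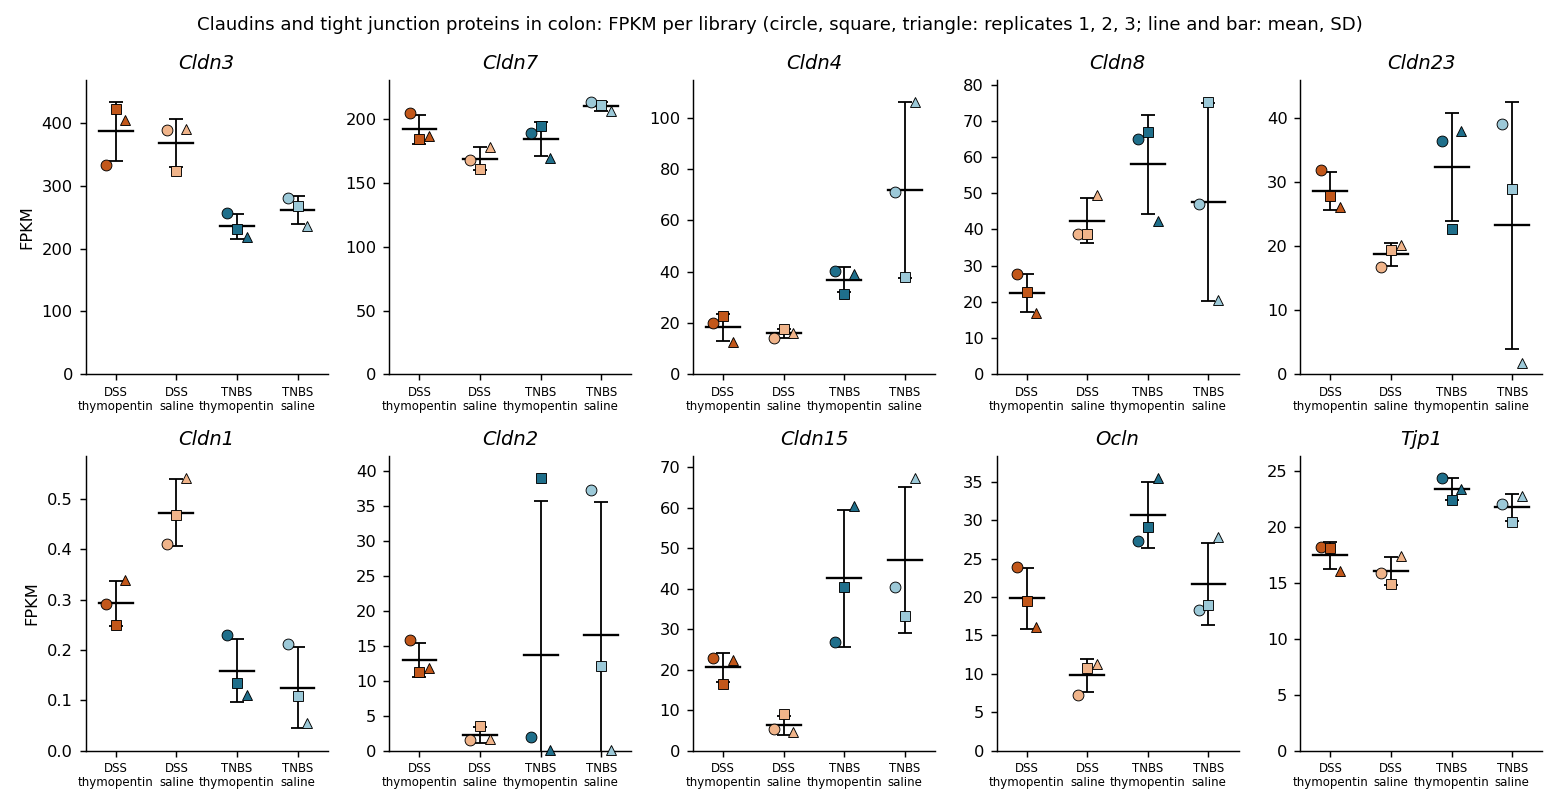
FPKM of the 10 genes (y axes, from 0, a scale for each gene) in the 4 groups (x axes); points are libraries, with the mean and SD of 3, and SD bars below 0 are cut off. Cldn15 and Ocln lie higher in the DSS thymopentin libraries than in the DSS saline libraries without overlap, and Cldn2 and Cldn23 lie near 0 in some TNBS libraries.

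Thymopentin in DSS colitis was set against saline in the same model, to ask whether the peptide changed junction transcripts there. Cldn15 and Ocln were called, both higher with thymopentin, and no gene of the 9 tested was called lower. Over all genes 12.7% were called higher and 4.3% lower (17.0% in all), so 2 of 9 stands against a background that was itself mostly upward. The median of all genes moved by 0.12 on the log2 scale. Of all calls 74.7% were higher with FPKM as deposited, but 52.5% after quantile normalization and 44.0% after median-ratio rescaling. Because whole colon was measured, fewer cells of a type and less RNA per cell cannot be told apart in any of these comparisons.

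Cldn15, a claudin that forms channels for cations, was at 22.9, 16.5 and 22.3 FPKM in DSS thymopentin libraries, against 5.36, 8.96 and 4.51 FPKM in DSS saline libraries. Every thymopentin library was above every saline library. The ratio of the means was 3.28, and the log2 fold change was 1.60 ± 0.33 (SE; adjusted p = 0.0124), or 1.48 above the median of all genes. The call was lost without DSS saline 3 (log2 fold change 1.42 ± 0.37, SE; adjusted p = 0.0525). For Cldn15 the authors' deposited table listed 1.62 as the log2 change in DSS colitis (FDR 8.58e-11).

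Ocln, occludin, was at 23.9, 19.5 and 16.03 FPKM with thymopentin and at 7.29, 10.8 and 11.3 FPKM with saline. The groups did not overlap, and the thymopentin mean was 2.02 times the saline mean. Its log2 fold change was 0.95 ± 0.21 (SE; adjusted p = 0.0147), or 0.83 above the median of all genes, and it stayed called without any library, at adjusted p from 0.00966 to 0.0471. Ocln was not among the genes of the authors' deposited table for DSS, which holds only genes whose change was 1 or more in size on the log2 scale.

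Cldn2, which forms a channel for cations and water, had the widest ratio of means: 15.8, 11.3 and 11.9 FPKM in DSS thymopentin libraries, against 1.54, 3.54 and 1.69 FPKM in DSS saline libraries. The lowest thymopentin library was well above the highest saline library. The ratio of the means was 5.75, yet the log2 fold change of 2.14 ± 1.38 (SE) was not called (adjusted p = 0.303) in the fit that shares its spread with the TNBS libraries, where Cldn2 ran from 0.0151 to 39.0 FPKM. Fitted on the DSS libraries alone, the same fold change had an SE of 0.25 and was called (adjusted p = 0.00758). Reads recovered from the authors' deposited table were 2011, 1211 and 1592 in thymopentin libraries and 214, 456 and 217 in saline libraries, and that table listed a log2 change of 2.47 (FDR 4.42e-18).

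Cldn8, a sealing claudin, had a fold change of the opposite sign. It was at 27.7, 22.7 and 17.0 FPKM with thymopentin and at 38.8, 38.7 and 49.5 FPKM with saline, again with no overlap. The log2 fold change of -0.90 ± 0.38 (SE) was not called (adjusted p = 0.126). It was called on the DSS libraries alone (adjusted p = 0.0335), without TNBS saline 3 (adjusted p = 0.0324) and without both TNBS libraries numbered 3 (adjusted p = 0.0221). In the authors' deposited table Cldn8 had a log2 change of -1.07 in DSS colitis (FDR 3.68e-06).

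Cldn23, a claudin of mature surface epithelium, was at 31.9, 27.8 and 26.1 FPKM with thymopentin, against 16.7, 19.4 and 20.1 FPKM with saline. These groups did not overlap either, and the gene was called on the DSS libraries alone (log2 fold change 0.58, SE 0.12, adjusted p = 0.0281) but not in the shared fit (SE 0.78, adjusted p = 0.638). With only the DSS libraries fitted, 5 of the 9 genes were called, 4 higher and 1 lower, where 7.98% of all genes were called higher and 4.04% lower.

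Among the remaining sealing genes, Cldn7 was at 205.4, 184.7 and 186.6 FPKM with thymopentin and at 168.0, 161.4 and 178.6 FPKM with saline. Its groups lay apart, with a log2 fold change of 0.18 ± 0.083 (SE; adjusted p = 0.153). Cldn3, Cldn4 and Tjp1 overlapped between the groups, with log2 fold changes of 0.07, 0.16 and 0.11. Those of Cldn3 and Tjp1 turned to -0.09 and -0.04 after median-ratio rescaling. Cldn1, which also seals, was at 0.291, 0.25 and 0.339 FPKM with thymopentin and at 0.41, 0.467 and 0.542 FPKM with saline. At these low levels its groups lay apart, and with no filter on low genes its log2 fold change was -0.19 ± 0.063 (SE; adjusted p = 0.121). In all, 7 of the 10 genes had no overlap between the DSS groups, where 39.8% of all tested genes had none. The 7 include Cldn1, which was not among the tested genes.

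**Figure D2:**
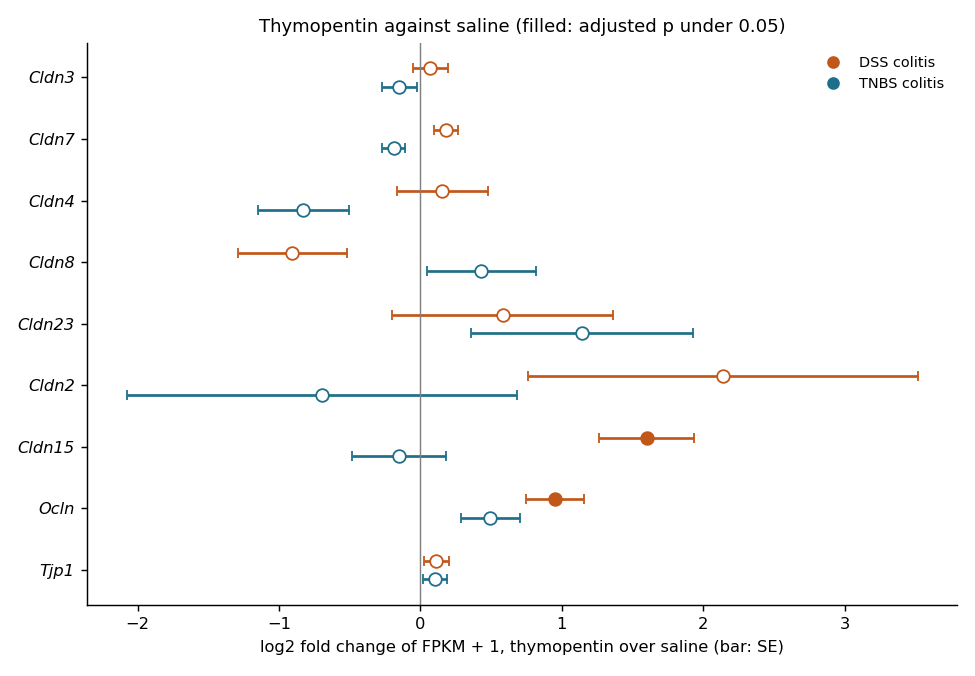
Log2 fold change of FPKM + 1, thymopentin over saline, with its SE (x axis), for 9 genes (y axis) in DSS and TNBS colitis; filled points had an adjusted p under 0.05. Only Cldn15 at 1.60 and Ocln at 0.95, both in DSS colitis, are filled, and the Cldn2 and Cldn23 bars are the widest.

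Thymopentin in TNBS colitis called none of the 9 genes with limma, and the authors' deposited table for TNBS listed none of them either. Across all genes 0.667% were called there. At an unadjusted p under 0.05, 3 of the 9 genes passed (Cldn4, Ocln and Cldn7), where 12.7% of all tested genes did.

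Cldn4, a sealing claudin, was at 40.5, 31.4 and 38.9 FPKM in TNBS thymopentin libraries and at 71.0, 37.8 and 106.4 FPKM in TNBS saline libraries. The groups overlapped through TNBS saline 2, and the log2 fold change was -0.83 ± 0.32 (SE; adjusted p = 0.313). Ocln was at 27.3, 29.1 and 35.5 FPKM with thymopentin and at 18.3, 19.0 and 27.9 FPKM with saline. It overlapped through TNBS saline 3, with a log2 fold change of 0.49 ± 0.21 (SE; adjusted p = 0.352). Cldn7 was at 189.1, 194.8 and 169.7 FPKM with thymopentin and at 213.3, 211.5 and 206.2 FPKM with saline. No thymopentin library reached the saline libraries, and the log2 fold change was -0.19 ± 0.083 (SE; adjusted p = 0.375). It was the only 1 of the 10 genes whose TNBS groups lay apart, against 18.8% of all tested genes. Without TNBS saline 3 the Cldn4 fold change was -0.49, and without both TNBS libraries numbered 3 it was -0.53, neither of them called.

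Deviations of same-numbered TNBS libraries correlated at 0.124, 0.268 and 0.476 over all genes, so the groups were also read by pair. These deviations were taken from means of 3 libraries, and both libraries numbered 3 stood apart. Correlations between libraries of unlike number were not computed, so it is not established that the numbers mark pairs. Thymopentin was below saline in 3 of 3 pairs for Cldn4, Cldn3 and Cldn7, and above it in 3 of 3 pairs for Ocln and Tjp1. With the pairs as a block, limma still called none of them, at adjusted p = 0.212 for Cldn4, 0.691 for Cldn3, 0.441 for Cldn7, 0.352 for Ocln and 0.741 for Tjp1. Thymopentin was also above saline in 3 of 3 pairs for Cldn1, which was too low to test. The share of all genes with 3 of 3 pairs in 1 direction was not taken. A p that misses the threshold does not show that the TNBS groups were alike.

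Several genes varied more among TNBS replicates than between TNBS treatments. Cldn2 was at 1.93, 39.0 and 0.0254 FPKM in TNBS thymopentin libraries and at 37.3, 12.1 and 0.0151 FPKM in TNBS saline libraries. Both libraries numbered 3 thus listed it near 0, and values this low may be failed estimates. Its log2 fold change of -0.70 ± 1.38 (SE) was -2.18 without TNBS saline 3, 0.44 without TNBS thymopentin 3 and -1.05 without both, and was called in none of these. Cldn23 was at 36.5, 22.7 and 38.1 FPKM with thymopentin and at 39.2, 28.9 and 1.69 FPKM with saline, so TNBS saline 3 alone was low. Its log2 fold change was 1.14 with all libraries, -0.09 without TNBS saline 3 and -0.22 without both libraries numbered 3, and none of these was called.

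Markers of position along the colon differed among the same libraries. Hoxb13, of the distal colon, was at 89.8, 87.5 and 49.4 FPKM in TNBS thymopentin and at 50.04, 86.9 and 0.722 FPKM in TNBS saline libraries. Fabp2, a fatty acid carrier most abundant towards the small intestine, was at 45.2, 61.6 and 241.6 FPKM in TNBS thymopentin and at 275.0, 46.7 and 453.7 FPKM in TNBS saline libraries. TNBS saline 3 was thus lowest for Hoxb13 and highest for Fabp2. Cldn15 and Cldn4 were also at their highest there, at 67.4 and 106.4 FPKM, and Cldn8 was at its TNBS lowest, 20.6 FPKM. In the DSS libraries 6 distal Hox genes summed to 158.8 to 203.9 FPKM with thymopentin and 97.3 to 108.3 FPKM with saline. The sums of 6 proximal position genes were 71.0 to 79.4 FPKM with thymopentin and 63.7 to 82.7 FPKM with saline. No tested gene of either set was called there. Between the models Hoxd13 was called higher in DSS colitis under both treatments, Hoxd10 higher under thymopentin only, and Fabp2 lower under saline only. The part of these markers in the claudin values was not tested.

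Cldn15 in TNBS colitis was at 26.9, 40.3 and 60.6 FPKM with thymopentin, against 40.4, 33.2 and 67.4 FPKM with saline. Cldn8 was at 64.9, 67.0 and 42.3 FPKM with thymopentin and at 46.9, 75.3 and 20.6 FPKM with saline. Both genes overlapped between the groups, with log2 fold changes of -0.15 and 0.43 that were not called. Without TNBS saline 3 both signs turned, to 0.14 for Cldn15 and -0.063 for Cldn8. Cldn15 was at -0.44 without TNBS thymopentin 3, and Cldn8 was at 0.15 without both libraries numbered 3. None of these was called. Cldn3 and Tjp1 were tighter: Cldn3 lay between 218.1 and 257.4 FPKM with thymopentin and between 236.3 and 280.6 FPKM with saline, and Tjp1 lay between 22.4 and 24.4 FPKM with thymopentin and between 20.4 and 22.8 FPKM with saline. Their log2 fold changes were -0.15 ± 0.12 for Cldn3, or -0.097 without TNBS thymopentin 3, and 0.10 ± 0.085 for Tjp1 (SE). Cldn1 was at 0.23, 0.135 and 0.111 FPKM with thymopentin and at 0.213, 0.108 and 0.0542 FPKM with saline.

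Whether the thymopentin response differed between the models was tested as the DSS fold change minus the TNBS fold change. With limma 0 of 9 genes were called, where 5.15% of all genes were, and 3 genes passed an unadjusted p under 0.05 (Cldn15, Cldn7 and Cldn8), where 22.1% of all tested genes did. Cldn15 came nearest, with a difference of 1.75 ± 0.47 (SE; adjusted p = 0.061). It was called without TNBS thymopentin 3 (adjusted p = 0.0427), without DSS saline 2 (adjusted p = 0.0476) or without both TNBS libraries numbered 3 (adjusted p = 0.0415). Cldn7 had a difference of 0.37 ± 0.12 (SE; adjusted p = 0.0959), higher with thymopentin in DSS and lower in TNBS colitis. For Cldn8 the difference was -1.34 ± 0.54 (SE; adjusted p = 0.178), and for Cldn4 it was 0.98 ± 0.45 (SE; adjusted p = 0.236). Ocln differed by 0.46 ± 0.29 (SE; adjusted p = 0.402), having risen in DSS colitis and having a fold change of the same sign in TNBS colitis. Without TNBS saline 3 the differences were -0.84 for Cldn8, 0.64 for Cldn4 and 0.27 for Ocln, none of them called. Cldn2 differed by 2.84 with all libraries, by 4.32 without TNBS saline 3 and by 1.70 without TNBS thymopentin 3, and Cldn23 by -0.56 with all libraries and 0.67 without TNBS saline 3, again with no call. These misses do not show that the models responded alike. The median of all genes was 0.11 here, and the share of calls that were higher was 53.0% as deposited, 41.1% after quantile normalization and 33.8% after median-ratio rescaling.

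The models were compared within each treatment. DSS saline was set against TNBS saline, and 6 of the 9 genes were called, 1 higher and 5 lower in DSS colitis. The background was wide: 46.6% of all genes were called, 15.2% higher and 31.5% lower. The median of all genes was -0.14, and the share of calls that were higher was 32.5% as deposited, 43.0% after quantile normalization and 50.9% after median-ratio rescaling. The labels do not say whether the models were run or sequenced together, so model and batch cannot be told apart.

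Cldn15 differed the most of the called genes, at the DSS saline values given above of 4.51 to 8.96 FPKM, against 33.2 to 67.4 FPKM in TNBS saline libraries. No library overlapped, and the log2 fold change was -2.71 ± 0.33 (SE; adjusted p = 0.000205). Cldn4 was at 14.2, 17.6 and 16.1 FPKM in DSS saline libraries, against 71.0, 37.8 and 106.4 FPKM in TNBS saline libraries. Here too the groups lay apart, with a log2 fold change of -1.99 ± 0.32 (SE; adjusted p = 0.000776). For Ocln, DSS saline libraries lay at 7.29 to 11.3 FPKM and TNBS saline libraries at 18.3 to 27.9 FPKM. These did not overlap either, and the log2 fold change was -1.07 ± 0.21 (SE; adjusted p = 0.00205). Relative to the median of all genes, Cldn15 was at -2.56, Cldn4 at -1.84 and Ocln at -0.93.

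Tjp1 was at 15.9, 14.9 and 17.4 FPKM in DSS saline and at 22.0, 20.4 and 22.8 FPKM in TNBS saline libraries. The groups lay apart, with a log2 fold change of -0.42 ± 0.085 (SE; adjusted p = 0.00277) that missed the threshold after median-ratio rescaling (-0.24, adjusted p = 0.0832). Cldn7 was lower too (-0.31 ± 0.083, SE; adjusted p = 0.011), a call also lost after that rescaling (-0.13, adjusted p = 0.286). Cldn3 was the gene called higher, at 389.4, 324.0 and 390.3 FPKM in DSS saline, against 280.6, 268.5 and 236.3 FPKM in TNBS saline libraries. The Cldn3 groups did not overlap, and its log2 fold change was 0.49 ± 0.12 (SE; adjusted p = 0.00864), which was not called after quantile normalization (0.17, adjusted p = 0.313). Relative to the median of all genes Cldn3 was at 0.63, Tjp1 at -0.27 and Cldn7 at -0.17. In all, 7 of the 10 genes had no overlap between the saline groups, where 56.5% of all tested genes had none. Cldn1, not among the tested genes, is 1 of the 7.

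Cldn2, Cldn8 and Cldn23 were not called between the saline groups. Without both TNBS libraries numbered 3, Cldn2 had a log2 fold change of -2.84 (adjusted p = 0.0372) and Cldn23 one of -0.82 (adjusted p = 0.0132), so that 8 of 9 genes were called. Cldn23 reached -0.82 without TNBS saline 3 alone as well (adjusted p = 0.0145), against 0.41 with it. Cldn8 was at 0.0045 with all libraries and at -0.49 without TNBS saline 3 (adjusted p = 0.177). Cldn1 lay apart, at 0.41 to 0.542 FPKM in DSS saline and 0.0542 to 0.213 FPKM in TNBS saline libraries, and was called when low genes were kept (log2 fold change 0.39 ± 0.063, SE; adjusted p = 0.00208).

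With thymopentin in both models, 5 of the 9 genes were called between DSS and TNBS colitis, where 27.5% of all genes were, and 4 of these were lower in DSS colitis, where 16.5% of all genes were. Cldn3 was again higher, at 332.6, 422.6 and 404.9 FPKM in DSS thymopentin, against 257.4, 231.5 and 218.1 FPKM in TNBS thymopentin libraries. The groups lay apart, with a log2 fold change of 0.71 ± 0.12 (SE; adjusted p = 0.00333). Tjp1 was again lower, at 16.1 to 18.2 FPKM in DSS thymopentin and 22.4 to 24.4 FPKM in TNBS thymopentin libraries (-0.40 ± 0.085, SE; adjusted p = 0.00766). These 2 genes stayed called without any library.

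Cldn8, Cldn4 and Ocln were called lower as well, but less firmly. Cldn8 was at 17.0 to 27.7 FPKM in DSS thymopentin and 42.3 to 67.0 FPKM in TNBS thymopentin libraries (-1.33 ± 0.38, SE; adjusted p = 0.0274), and it missed the threshold without TNBS thymopentin 1 or 2 or DSS thymopentin 2 or 3 (adjusted p up to 0.101). Cldn4 was at 12.5 to 22.6 FPKM in DSS thymopentin and 31.4 to 40.5 FPKM in TNBS thymopentin libraries (-1.003 ± 0.32, SE; adjusted p = 0.0411). Ocln was at 16.03 to 23.9 FPKM in DSS thymopentin and 27.3 to 35.5 FPKM in TNBS thymopentin libraries (-0.61 ± 0.21, SE; adjusted p = 0.0499). The 3 genes did not overlap between the models. Cldn4 lost its call without any thymopentin library of either model, DSS saline 2 or 3, or TNBS saline 1 (adjusted p up to 0.15), and after quantile normalization or median-ratio rescaling (adjusted p = 0.0514 and 0.0618). Ocln lost its call without DSS thymopentin 2 or 3, DSS saline 2 or 3, any TNBS thymopentin library, or TNBS saline 1 or 2 (adjusted p up to 0.173), and after median-ratio rescaling (adjusted p = 0.0766). With no filter on low genes all 3 calls were lost, at adjusted p = 0.0666 for Cldn8, 0.0941 for Cldn4 and 0.107 for Ocln.

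Cldn15, far lower in DSS than in TNBS colitis under saline, had a log2 fold change of -0.95 ± 0.33 between the thymopentin groups (SE; adjusted p = 0.0567), with groups that lay apart. It was called without TNBS saline 3, TNBS thymopentin 1 or DSS saline 2 (adjusted p = 0.0374, 0.0286 and 0.0478). Cldn7 overlapped, at 184.7 to 205.4 FPKM in DSS thymopentin and 169.7 to 194.8 FPKM in TNBS thymopentin libraries. Over all genes the share of calls that were higher was 40.1% as deposited, 42.5% after quantile normalization and 50.9% after median-ratio rescaling. Without both TNBS libraries numbered 3, 3 of the 9 genes were called. Between the thymopentin groups 7 of the 10 genes had no overlap, where 46.2% of all tested genes had none. Cldn1, not among the tested genes, is again counted in the 7.

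**Figure D3:**
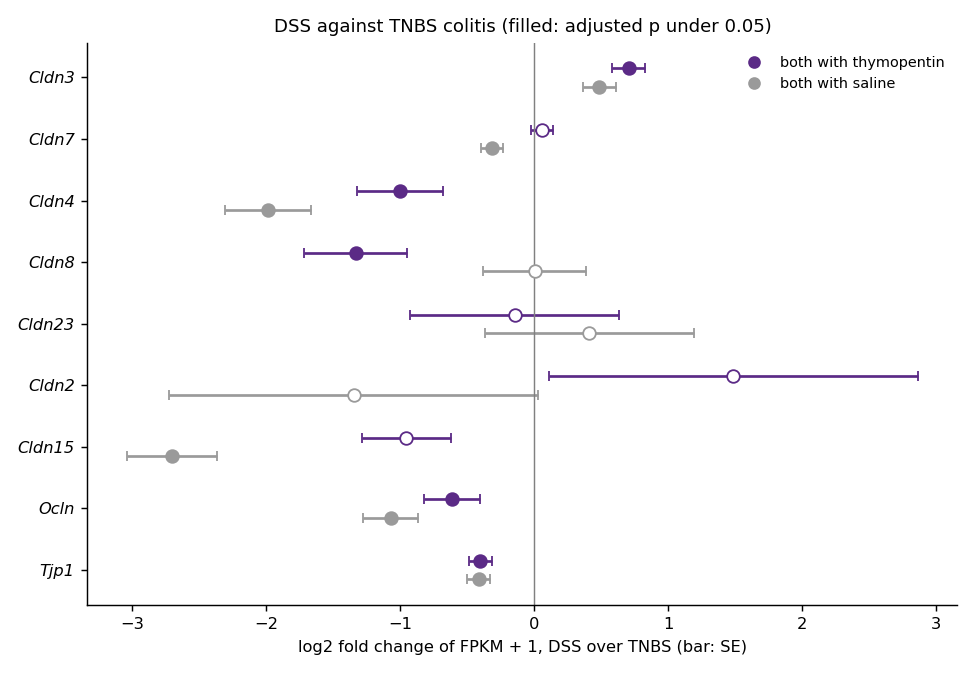
Log2 fold change of FPKM + 1, DSS over TNBS, with its SE (x axis), for 9 genes (y axis), between thymopentin groups and between saline groups; filled points had an adjusted p under 0.05. Cldn3 is higher and Cldn4, Ocln and Tjp1 are lower in DSS colitis under both treatments, while Cldn15 at -2.71 is filled under saline only.

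The make-up of the claudin pool was taken as each gene's share of the summed FPKM of the 8 claudins. Cldn3 and Cldn7 together made up 84.8% ± 2.51 in DSS thymopentin, 86.2% ± 1.66 in DSS saline, 69.5% ± 2.40 in TNBS thymopentin and 69.6% ± 2.12 in TNBS saline libraries (SD, n = 3 each). Every DSS library was above every TNBS library. Cldn2 and Cldn15, which both form cation channels, together made up 4.94% ± 0.992 in DSS thymopentin, 1.40% ± 0.677 in DSS saline, 9.35% ± 4.19 in TNBS thymopentin and 9.37% ± 2.22 in TNBS saline libraries (SD, n = 3 each). DSS thymopentin libraries, at 3.92% to 5.90%, did not overlap DSS saline libraries, at 0.938% to 2.18%, whereas the TNBS groups did overlap. With 3 libraries against 3, an exact permutation test cannot go below p = 0.1 (two-sided), and these shares are given as descriptions.

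The summed FPKM of the 8 claudins was 682.0 ± 26.0 in DSS thymopentin, 623.0 ± 44.7 in DSS saline, 604.0 ± 31.7 in TNBS thymopentin and 678.0 ± 46.1 in TNBS saline libraries (SD, n = 3 each). The lowest single total was 567.8 and the highest 728.9 FPKM. Cldn8 made up 3.30% ± 0.87 in DSS thymopentin and 6.78% ± 0.691 in DSS saline libraries (SD, n = 3 each), and Cldn4 made up 6.14% ± 0.991 in TNBS thymopentin and 10.7% ± 5.58 in TNBS saline libraries (SD, n = 3 each).

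**Figure D4:**
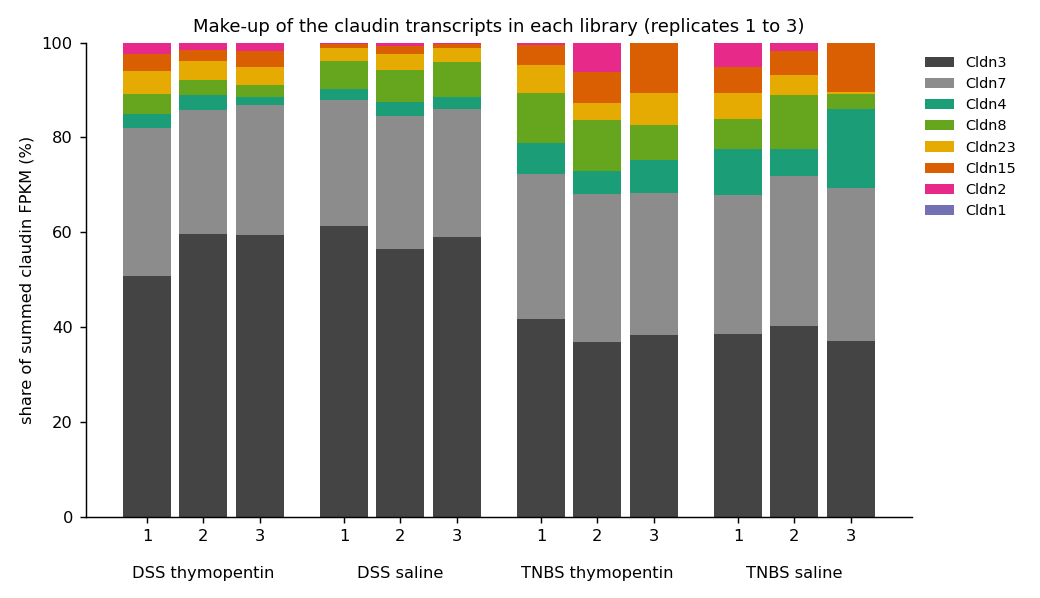
Share of each claudin in the summed FPKM of 8 claudins (y axis, percent) in each library (x axis, replicates 1 to 3 of 4 groups). Cldn3 and Cldn7 fill 82.0% or more of each DSS library and 72.3% or less of each TNBS library, and Cldn1 is too small to see.

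Genes whose levels ran most like each called gene over the 12 libraries were found by the root mean square (RMS) difference of centred log2 values. Cldn15, whose own RMS spread was 1.14, lay nearest Cbs at 0.255 and Akr1c19 at 0.277. Ocln, with a spread of 0.611, lay nearest Ugt2b34 at 0.165 and Cyp39a1 at 0.203. Cldn4, with a spread of 0.882, lay nearest Tmcc3 at 0.278 and the desmosome cadherin Dsc2 at 0.293. Cldn8 lay nearest Fcgbp, a mucus protein of goblet cells, at 0.281, and Gna14 at 0.331. Cldn3 lay nearest the protease inhibitor Spint2 at 0.0904 and Perm1 at 0.093, and Cldn7 nearest Sri at 0.0537 and the adhesion protein Nectin2 at 0.0655. Tjp1 lay nearest Mtm1 at 0.0583 and Chm at 0.0631. Spreads were 0.651 for Cldn8, 0.328 for Cldn3, 0.129 for Cldn7 and 0.223 for Tjp1. A small distance for a gene of small spread is not a closer likeness. All 12 libraries share the 4 groups, so these distances are descriptions.

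Other genes of the junction were read from lists, beginning with membrane proteins. In DSS colitis 3 of 11 tested genes rose with thymopentin and 3 fell, where 12.7% of all genes were called higher and 4.3% lower. The list median was 0.13, close to the 0.12 of all genes. Marveld2, the tricellulin that seals corners where cells meet, was at 11.6, 12.9 and 12.03 FPKM with thymopentin and at 8.85, 8.48 and 8.53 FPKM with saline (log2 fold change 0.45 ± 0.070, SE; adjusted p = 0.00375). Cxadr, a virus receptor of the junction, rose by 0.69. Ildr1, which places tricellulin at those corners, fell by 0.61, and Esam, an adhesion protein of endothelium, fell by 0.64. Marveld3 was the other gene called higher, and Jam3 the other called lower. Leaving out a library left 0 to 5 of the list lower and 2 to 3 higher. Cldn5, the claudin of blood vessel walls, fell as well (-0.73 ± 0.21, SE; adjusted p = 0.0415), the only 1 called of 3 tested further claudins, with an adjusted p of 0.0311 to 0.115 when a library was left out. In TNBS colitis limma called 0 of the 11 membrane proteins and 0 of the 3 claudins. At an unadjusted p under 0.05 it picked 1 of each, where 12.7% of all tested genes passed.

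Of 13 scaffold and polarity proteins tested, 1 was called higher with thymopentin in DSS colitis, where 12.7% of all genes were. It was Magi3 (0.50 ± 0.11, SE; adjusted p = 0.0143), a call lost after median-ratio rescaling (adjusted p = 0.0595). None was called lower with FPKM as deposited, but the cingulin relative Cgnl1 was after either rescaling (-0.43 after quantile normalization and -0.45 after median-ratio rescaling; adjusted p = 0.0216 and 0.0203). For Cgnl1 the thymopentin response also differed between DSS and TNBS colitis (-0.66 ± 0.16, SE; adjusted p = 0.0427, and up to 0.105 when a library was left out). Between the saline groups 6 of the 13 were lower in DSS colitis, among them Magi3 (-0.82) and the polarity proteins Patj (-0.60), Prkci (-1.19) and Prkcz (-0.65), where 31.5% of all genes were lower. After quantile normalization 4 were lower and 1 higher, and after median-ratio rescaling 4 were lower and 2 higher. With thymopentin in TNBS colitis limma called 0 of 13, and 1 at an unadjusted p under 0.05, where 12.7% of all tested genes passed.

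Adherens junction and desmosome genes, which hold the same cells together below the tight junction, had 6 of 17 called higher with thymopentin in DSS colitis, where 12.7% of all genes were, with a list median of 0.30. These included Nectin1 (0.43), E-cadherin Cdh1 (0.39), desmoplakin Dsp (0.47) and the catenin Ctnna1 (1.17). Cdh1 was at 226.3, 201.8 and 173.8 FPKM with thymopentin and at 143.9, 149.9 and 161.5 FPKM with saline. The Cdh1 groups lay apart. Those of Ctnna1 overlapped, at 48.98, 39.2 and 16.69 FPKM with thymopentin and 10.02, 14.58 and 17.03 FPKM with saline. The authors' deposited table for DSS gave Ctnna1 an FDR of 0.054. The count was unstable: it ranged from 1 to 5 when a library was left out, and was 2 after quantile normalization and 1 after median-ratio rescaling. In TNBS colitis limma called 0 of 17, and 2 at an unadjusted p under 0.05, where 12.7% of all tested genes passed. Between the saline groups 13 of 17 were lower in DSS colitis, including Dsp (-1.56) and Dsc2 (-1.92), where 31.5% of all genes were lower. That count was 10 to 13 when a library was left out, 10 after quantile normalization and 9 after median-ratio rescaling.

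Claudin partners and regulators had 4 of 10 called higher with thymopentin in DSS colitis, where 12.7% of all genes were, and none lower. Epcam, which binds claudin-7 and keeps it stable, was at 858.8, 762.9 and 715.9 FPKM with thymopentin and at 496.2, 601.8 and 634.0 FPKM with saline (log2 fold change 0.44 ± 0.12, SE; adjusted p = 0.0315). The kinase Wnk4, known to phosphorylate claudins in kidney, rose by 1.002, the protease Prss8 by 0.61 and the protease inhibitor Spint1 by 0.76. The Epcam and Spint1 calls were lost after median-ratio rescaling (adjusted p = 0.15 and 0.0628), which left 2 of 10, and 1 to 4 of the list were called when a library was left out. For Epcam and Prss8 the thymopentin response itself differed between DSS and TNBS colitis (differences of 0.74 and 0.74, adjusted p = 0.0348 and 0.0491). Both calls were lost after quantile normalization (adjusted p = 0.0526 and 0.087) and after median-ratio rescaling (adjusted p = 0.063 and 0.0743). Leaving out a library left 0 to 1 of the list called higher for this difference.

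Of 13 tested transcription factors of epithelia, 9 rose with thymopentin in DSS colitis, where 12.7% of all genes were called higher, with a list median of 0.69. Grhl2, which controls junction genes in epithelia, was at 4.05, 4.27 and 4.54 FPKM with thymopentin and at 1.88, 1.82 and 1.78 FPKM with saline (log2 fold change 0.90 ± 0.070, SE; adjusted p = 0.000126). The vitamin D receptor Vdr rose by 1.28 and Hnf4a by 0.77. Leaving out a library left 9 to 10 called higher, and either rescaling left 8. None was called lower with FPKM as deposited. Zeb1, a repressor of E-cadherin and other epithelial genes, was called lower after either rescaling (-0.43 after quantile normalization and -0.45 after median-ratio rescaling; adjusted p = 0.0407 and 0.0252). In TNBS colitis limma called 0 of 13, and 3 at an unadjusted p under 0.05, where 12.7% of all tested genes passed. The response differed between the models for Grhl2 (0.73, adjusted p = 0.00716), Vdr (1.15, adjusted p = 0.0164) and Hnf4a (0.79, adjusted p = 0.021, up to 0.0605 when a library was left out). It differed in the other direction for Zeb1 (-0.68, adjusted p = 0.0365, up to 0.0947 when a library was left out).

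Of the cytokines known to act on the barrier, 4 were high enough to test. With thymopentin in DSS colitis 3 of the 4 were called lower, where 4.3% of all genes were: Tnf (-1.21), Il1b (-1.38, with an adjusted p of up to 0.115 when a library was left out) and Il22. The fourth, Tgfb1, was not called there (-0.28, adjusted p = 0.479). In TNBS colitis, where 0.667% of all genes were called, Tnf was called lower (-1.13 ± 0.21, SE; adjusted p = 0.0461, and 0.0133 to 0.151 when a library was left out). Tnf, which loosens tight junctions, was at 1.58, 3.99 and 2.90 FPKM in DSS thymopentin libraries and at 7.39, 7.39 and 7.74 FPKM in DSS saline libraries. In TNBS colitis it was at 1.87, 2.62 and 2.05 FPKM with thymopentin and at 5.71, 5.05 and 7.17 FPKM with saline. Neither pair of groups overlapped. Il1b, Il22 and Tgfb1 were not called in TNBS colitis, with log2 fold changes of -1.38, -0.020 and 0.099 (adjusted p = 0.167, 0.995 and 0.922). The TNBS groups of Il1b lay apart, at 0.851, 1.07 and 1.39 FPKM with thymopentin and 5.85, 8.04 and 1.58 FPKM with saline. The authors' deposited table for TNBS listed Il1b at a log2 change of -1.99 (FDR 0.000358) and Tnf at -1.51 (FDR 6.44e-09). It also listed Ifng, too low to test here, at -3.21 (FDR 0.0124). Their table for DSS listed Ifng lower as well, at -1.42 (FDR 0.014). It held Tnf at -1.63, Il1b at -2.085 and Il22 at -6.425 (FDR 7.75e-07, 4.9e-10 and 0.0214). Il17a and Il6, also too low to test here, were at -3.10 and -2.61 in that table (FDR 0.033 and 0.216). Il22 was listed at 0, 0.236 and 0 FPKM in DSS thymopentin and at 13.1, 5.59 and 0.969 FPKM in DSS saline libraries.

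**Figure D5:**
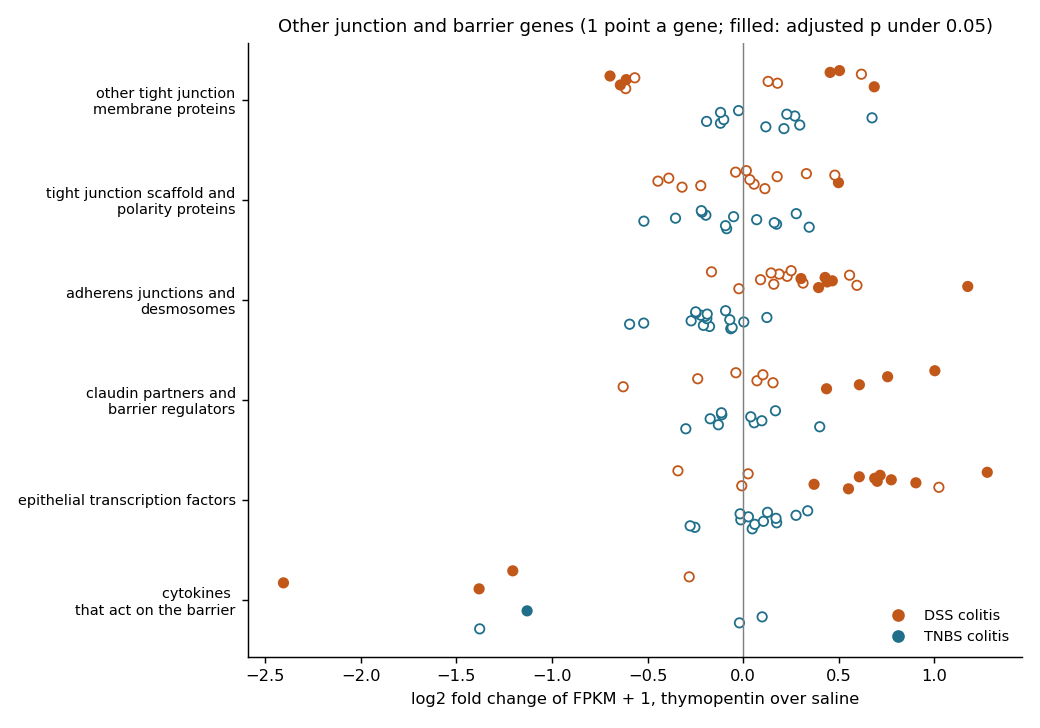
Log2 fold change of FPKM + 1, thymopentin over saline (x axis), for genes of 6 lists (y axis, 1 point a gene) in DSS and TNBS colitis; filled points had an adjusted p under 0.05. In DSS colitis 9 of 13 epithelial transcription factors are filled to the right and 3 of 4 cytokines to the left, and in TNBS colitis Tnf is the only filled point.

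Markers of other cell types moved beside these results in DSS colitis, where 12.7% of all genes were called higher and 4.3% lower. The 8 smooth muscle markers summed to 1546 to 2317 FPKM in DSS thymopentin and 3457 to 4023 FPKM in DSS saline libraries, with 3 of 8 called lower (Tagln, Des and Cnn1) and none at 0. Neuron and glia markers summed to 11.4 to 18.9 FPKM with thymopentin and 23.7 to 31.5 FPKM with saline, with 4 of 5 tested called lower. Fibroblast markers summed to 118.3 to 135.9 FPKM with thymopentin and 138.1 to 167.2 FPKM with saline, with 2 of 6 called lower (Dcn and Lum), and 1 of 5 tested endothelial markers was called lower (Cldn5). Among epithelial markers 2 of 9 were called higher, Cdh1 and Epcam, and their summed level overlapped between the groups. Immune markers summed to 26.2 to 66.4 FPKM with thymopentin and 37.4 to 81.1 FPKM with saline, with 0 of 7 called by limma and 1 at an unadjusted p under 0.05. Absorptive colonocyte markers had 0 of 9 called by limma and 1 at an unadjusted p under 0.05. In TNBS colitis 0.667% of all genes were called. Fibroblast markers there summed to 99.4 to 123.7 FPKM with thymopentin and 68.4 to 75.2 FPKM with saline, with Dcn and Lum called higher. There Slc26a3, a chloride exchanger, was called higher too (1.25, adjusted p = 0.0217, up to 0.0746 when a library was left out), the only 1 called of 9 absorptive colonocyte markers. The part of these shifts in the junction gene values was not tested.

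Beside the differences between the models under saline, smooth muscle markers summed to 3457 to 4023 FPKM in DSS and 869.4 to 2677 FPKM in TNBS libraries, with 7 of 8 called higher in DSS colitis. Endothelial markers had 5 of 5 tested called higher, fibroblast markers 5 of 6, and neuron and glia markers 5 of 5. Immune markers had 4 of 7 called higher (Cd3e, Cd68, Itgam and Csf1r), each with groups that lay apart. Their summed level over all 7 overlapped, at 37.4 to 81.1 FPKM in DSS and 7.31 to 66.2 FPKM in TNBS libraries, with TNBS saline 3 lowest. Absorptive colonocyte markers had 4 of 9 called lower (Ceacam1, Guca2a, Car1 and Scnn1a). Of 9 epithelial markers 1 was called higher and 4 lower. These counts stand beside 15.2% of all genes called higher and 31.5% called lower. Between the thymopentin groups 0 of 8 smooth muscle markers were called by limma, 0 at an unadjusted p under 0.05, with sums of 1546 to 2317 FPKM in DSS and 1807 to 2566 FPKM in TNBS libraries. There 6 of 9 absorptive colonocyte markers were called lower in DSS colitis, and 4 of 7 immune, 2 of 5 endothelial and 1 of 6 fibroblast markers were called higher. The same 4 immune markers were called, again with groups that lay apart. Immune sums overlapped, at 26.2 to 66.4 FPKM in DSS thymopentin and 5.38 to 43.45 FPKM in TNBS thymopentin libraries, with TNBS thymopentin 3 lowest. Over all genes 27.5% were called between the thymopentin groups, and 16.5% were called lower. Epithelial markers had 3 of 9 called higher and 2 lower, and 0 of 5 neuron and glia markers were called by limma, with 1 at an unadjusted p under 0.05. The part of these markers in the claudin differences was not tested.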

How the data were processed

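Colon RNA of 12 wild-type mouse libraries was sequenced from TRIzol-extracted total RNA with strand-specific TruSeq libraries, per the labels' protocols. Tools named in the submitters' processing notes, without their roles, are STAR 2.5, Cuffnorm, FastQC and DESeq 1.22.1, and the build named is mm9; which gene models were used is not stated there. The authors deposited FPKM for all genes. For selected genes of each model, per the file headers, they also deposited log2 values per library, with the log2 change, its p-value and its FDR; listed genes had p up to 0.0499 and changed by 1 or more on the log2 scale. Raised back from log2, low values of the DSS columns came out as whole reads within 0.01. Those reads were printed only, since the tables hold selected genes. Read totals are therefore unknown for the full table: summed FPKM ran from 384431.0 to 532510.2, and no interval from counts is given.

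Groups came from the treatment labels and replicate numbers from the titles. Log2(FPKM + 1) was fitted with limma 3.58.1 (R 4.3.3, empirical Bayes with trend) on 4 group means with 8 residual degrees of freedom, for genes with a mean of at least 1 FPKM; tests were two-sided, adjusted by Benjamini-Hochberg within each comparison and called under 0.05. The fit was tested on simulated data. Alternatives were a pseudocount of 0.1, no filter, quantile normalization, median-ratio rescaling, a fit of only the groups compared, a replicate block, and leaving out each library; leaving out both TNBS libraries numbered 3 was chosen after seeing the data. Deviations of same-numbered thymopentin and saline libraries correlated at 0.124, 0.268 and 0.476 in TNBS colitis. The numbers were taken as pairs there on that basis, which the labels do not state.

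The 10 genes, the gene lists and the tests were chosen with earlier results of these data known. Of each list, up to 4 called genes per comparison are named, by smallest p, and for each called gene of the 10 its 2 nearest genes, leaving out predicted and clone-named models. Symbols of the 10 matched the reference names in all 10 cases, and 99.7% of all identifiers matched. Upstream sequences came from RefSeq. Tables were made with Python 3.11.15 and pandas 2.3.3.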

Additional observations from a re-analysis of the deposited data

How the results depend on the processing

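Over 45 fold changes of single genes and 846 alternative values of them, 769 kept their direction and side of the threshold, 37 lost a call, 12 gained one and 28 changed sign in results not called with all libraries, 2 of which were then called (Cldn23 between saline groups); the causes were not tested. The number of called genes of the 9 moved with these settings. With only the groups compared, 5 were called for thymopentin in DSS colitis in place of 2. Between the thymopentin groups 5 became 2 with no filter, 3 after median-ratio rescaling, 3 with the replicate block (Cldn4 and Ocln lost, at adjusted p = 0.0614 and 0.0608) and 3 without both TNBS libraries numbered 3. The difference of responses gained 1 gene without those libraries. Among all genes, calls for thymopentin in TNBS colitis were 92, and 44 with no filter, 6 with only the groups compared and 45 without both libraries; for the difference they were 710, and 355 with no filter. Leaving out each library gave 0 genes of the 9 in TNBS colitis, 1 to 3 in DSS colitis, 0 to 1 for the difference, 6 to 7 between saline groups and 2 to 6 between thymopentin groups. Among all genes it gave 41 to 116 in TNBS colitis, 923 to 2505 in DSS colitis, 176 to 764 for the difference, 5347 to 6434 between saline groups and 2052 to 3999 between thymopentin groups.

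Signs turned as follows. Without both TNBS libraries numbered 3, Cldn23 was -0.22 for thymopentin in TNBS colitis, 0.80 for the difference and -0.82 between saline groups, Cldn8 was -0.49 between saline groups and Tjp1 was -0.021 for the difference. After quantile normalization Tjp1 was -0.0081 in DSS colitis and -0.13 for the difference, and Cldn7 was -0.19 between thymopentin groups. After median-ratio rescaling Cldn3 was -0.092 and Tjp1 -0.039 in DSS colitis, and Tjp1 was -0.10 for the difference. Leaving out 1 library spanned -2.21 to 0.44 for Cldn2, -0.063 to 0.85 for Cldn8, -0.44 to 0.14 for Cldn15 and -0.086 to 1.86 for Cldn23 in TNBS colitis; -0.019 to 0.17 for Cldn3 and -0.0093 to 0.39 for Cldn4 in DSS colitis; -1.28 to 0.67 for Cldn23 and -0.036 to 0.069 for Tjp1 for the difference; and -0.49 to 0.42 for Cldn8 and -0.82 to 1.13 for Cldn23 between saline groups.

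In the replicate block fit Cldn15 and Ocln stayed called for thymopentin in DSS colitis (adjusted p = 0.018 and 0.0314), and the block changed no TNBS call of the 9 genes (79 of all genes called). Same-numbered DSS libraries correlated at -0.136, 0.0427 and -0.14, and libraries of the 2 models at -0.128 to 0.121, so those were not taken as pairs. The highest of these, 0.121, was close to the lowest value within TNBS colitis, 0.124. Only the groups compared could not be fitted separately for the difference. Depth limits Cldn1 and the lowest Cldn2 values, whose read counts are unknown.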

Other observations

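Cldn12, a claudin outside the 10 genes, was singled out after its values were seen. It was listed at 0.0436 FPKM in DSS saline 3, against 8.79 to 9.54 FPKM in the other DSS saline libraries, 11.8 to 15.2 FPKM in DSS thymopentin, 6.79 to 19.5 FPKM in TNBS thymopentin and 7.73 to 11.3 FPKM in TNBS saline libraries. A value this low beside steady neighbours may be a failed estimate.

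Cdx2, a homeobox factor of intestinal identity also chosen after its values were seen, was at 26.9, 20.9 and 21.1 FPKM in DSS thymopentin, against 8.08, 14.96 and 10.1 FPKM in DSS saline libraries. The groups did not overlap, but the log2 fold change of 1.02 ± 0.34 (SE) was not called (limma, adjusted p = 0.0629). Between the models it was lower in DSS colitis under both treatments: -1.01 ± 0.34 between thymopentin groups (limma, adjusted p = 0.0492) and -2.29 ± 0.34 between saline groups (adjusted p = 0.00051). Leaving out a library gave the first of these an adjusted p of up to 0.159. TNBS libraries ran from 36.7 to 64.5 FPKM with thymopentin and from 33.3 to 92.0 FPKM with saline.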
